A study of Mus musculus with 64 samples.

Results

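The genes described here are 10 extracellular metalloproteinases and their inhibitors in mouse bone marrow-derived macrophages (BMMs): Mmp8, Mmp27, Mmp9, Mmp12, Mmp13, Mmp14, Mmp19, the tissue inhibitors Timp1 and Timp2, and the membrane protease Adam8. They were taken by symbol from the deposited gene counts, and are 10 of 55487 annotated genes. All 10 passed the filter on low counts, which left 14537 genes for the tests. The study asked how the aryl hydrocarbon receptor (AhR), a ligand-activated transcription factor, shapes the response of these macrophages to a bacterial stimulus. Its ligands were benzo[a]pyrene (BaP, a combustion product) and indole-3-carbinol (I3C, a compound from cruciferous vegetables). It had 64 RNA-seq libraries in 16 groups of 4. BMMs came from Ahr+/+ mice and from Ahr-/- mice, both on a C57BL/6 background, the first bought as C57BL/6JRj and the second a knockout strain crossed back and bred in-house. The mice were 8 to 12 weeks old, those of the Ahr+/+ strain female, and 4 mice were used per genotype. The cells had been grown in medium conditioned by L929 fibroblasts, and all libraries share this. In each genotype, at 3 h and at 20 h, 1 group received the solvent DMSO (0.01%) alone and was left unactivated. The other 3 groups were activated with heat-killed Salmonella enterica Serovar Enteritidis (hkSE, 10000000 per ml) after 6 h with DMSO, with 1 µM BaP or with 10 µM I3C. No group received a ligand without hkSE, and the doses of the ligands differed.

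Matrix metalloproteinases are zinc-dependent endopeptidases that are secreted as inactive proenzymes, or anchored in the plasma membrane, and that cleave collagens, elastin and other proteins of the extracellular matrix as well as cytokines and their receptors. TIMP proteins bind the active site and block it. Macrophages make several of these enzymes, and the balance of protease and inhibitor is known to govern matrix breakdown in inflamed tissue. RNA alone was measured here, so secretion, activation of the proenzymes and enzyme activity were not.

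The members lie on 7 chromosomes, given here from GENCODE M21 on GRCm38. Mmp13 (chr9:7272514-7283331), Mmp12 (chr9:7344381-7369499), Mmp8 (chr9:7558456-7568485) and Mmp27 (chr9:7571396-7581885) are all on the plus strand within a cluster of Mmp genes. The stretch of 309 kb from Mmp13 to Mmp27 holds 7 protein-coding Mmp genes. Only 2910 bases separate the end of Mmp8 from the start of Mmp27. Mmp9 is at chr2:164940780-164955850, Mmp14 at chr14:54431612-54445364, Mmp19 at chr10:128790910-128800824 and Timp1 at chrX:20870166-20874735, all on the plus strand. Timp2 (chr11:118301069-118355740) and Adam8 (chr7:139978932-139992562) are on the minus strand. The counts are of reads in exons. Timp2 overlaps Cep295nl on its own strand over 10141 bases and Adam8 overlaps Mir7062 over 66 bases. The overlaps of Mmp12, Mmp19, Timp1 and Adam8 with other genes are with the opposite strand, which the counting told apart.

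The results turn on Mmp8 and Mmp27 for genotype and ligand and on Mmp13 for activation, so the 250 bases before the start of each are given (RefSeq windows, build GRCm38.p6, plus strand, 5′ to 3′), with the letters TGACTCA of an AP-1 site in capitals.
Mmp8, chr9:7558179-7558428: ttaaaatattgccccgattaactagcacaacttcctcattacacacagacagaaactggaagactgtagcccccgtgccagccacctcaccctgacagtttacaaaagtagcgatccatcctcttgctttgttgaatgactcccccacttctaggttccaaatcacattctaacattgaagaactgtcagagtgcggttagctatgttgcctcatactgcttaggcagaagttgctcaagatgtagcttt
Mmp27, chr9:7571146-7571395: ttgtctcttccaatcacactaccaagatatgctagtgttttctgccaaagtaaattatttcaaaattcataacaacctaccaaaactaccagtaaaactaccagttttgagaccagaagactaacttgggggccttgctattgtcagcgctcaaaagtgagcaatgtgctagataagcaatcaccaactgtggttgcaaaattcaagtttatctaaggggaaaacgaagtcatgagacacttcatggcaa
Mmp13, chr9:7272264-7272513: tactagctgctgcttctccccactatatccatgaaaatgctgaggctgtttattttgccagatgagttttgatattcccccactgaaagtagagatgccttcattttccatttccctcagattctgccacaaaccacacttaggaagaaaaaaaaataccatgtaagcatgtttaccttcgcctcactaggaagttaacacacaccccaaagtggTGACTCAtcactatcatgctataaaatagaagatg
RefSeq windows of 300 bases (250 before and 50 after the start) were given for 8 of the 10 members, Mmp9 and Mmp19 having none in the table used. Each was searched on both strands for GCGTG (AHRE I, the core of the aryl hydrocarbon response element), for AHRE II, for GGGTGCAT (the element described for AhR with RelB) and for TGACTCA (AP-1), none of which overlapped another. The windows of Mmp8 and Mmp27 held none of these letters. The study searched a much longer stretch upstream, and it lists an AHRE for Mmp8 and none for Mmp27. The window of Mmp13 held TGACTCA at -35 to -29 from the start, and 1 of 2 windows of Mmp12 held it on the minus strand at -44 to -38. No TGACTCA was found in the windows of Mmp14, Timp1, Timp2 and Adam8. GCGTG was found in the windows of Timp1 (-206 to -202) and Timp2 (-113 to -109). Over all 32851 windows, the share with the letters was 32.4% for GCGTG, 1.65% for AHRE II, 0.521% for GGGTGCAT and 5.2% for TGACTCA.

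Total counts on genes ran from 12152496 to 50644601 per library (median 24499165), apart from 1 library of 233047331, replicate 4 of the unactivated Ahr+/+ group at 20 h. The number of counts behind a member ran from 0 in 1 library (Mmp27) upward. The counts of the targeted gene Ahr, taken over all its exons, were higher in Ahr-/- BMMs by 0.88 to 1.04 on the log2 scale in the 4 comparisons of genotype, so they do not check the genotype label. Ahrr, the AhR repressor gene, rose with ligand in Ahr+/+ BMMs (log2 fold changes of 3.36 and 1.73 with BaP and of 2.13 and 1.51 with I3C at 3 h and 20 h), and its values in Ahr-/- BMMs (-0.33 to 0.36) did not pass the test. All 7 macrophage markers were measured, with summed levels of 17300 to 32700 CPM (counts scaled to the size of the library). Of 10 neutrophil markers, Ly6g, Elane, Mpo and Prtn3 had group means of at most 0.216 CPM. The sum of all 10 was 13 to 66.7 CPM unactivated, 106 to 274 CPM 3 h after hkSE and 18.1 to 44 CPM at 20 h. Summed markers reached at most 8.35 CPM for fibroblasts and 2.63 CPM for dendritic cells, and none of 6 lymphocyte markers had enough counts to be tested.

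Adam8 was the most abundant member in unactivated Ahr+/+ BMMs. On a scale per length of exon (FPKM, reads per kilobase of exons scaled to the size of the library), its mean at 3 h was 301 ± 24.3 (SD, n = 4), ahead of Timp2 (65.3 ± 7.504), Mmp12 (59.6 ± 2.50) and Mmp14 (36.7 ± 6.98). Mmp8 (10.9 ± 2.15), Mmp19 (6.82 ± 0.580) and Mmp13 (4.96 ± 0.542) were lower, and Mmp27 (0.802 ± 0.200), Timp1 (0.743 ± 0.297) and Mmp9 (0.389 ± 0.0663) were near 1 FPKM or less. At 3 h of hkSE the order was a different one, with Mmp13 (1301 ± 203 FPKM) first, followed by Adam8 (229.7 ± 15.2), Mmp14 (194 ± 19.2) and Mmp12 (139 ± 9.42). Mmp13 made up 4.12% of the summed FPKM of the 7 Mmp members in unactivated Ahr+/+ BMMs at 3 h and 78.7% after hkSE, and 2.92% and 75% in Ahr-/- BMMs. At 20 h its share was 2.38% unactivated and 31.8% after hkSE in Ahr+/+ BMMs, and 1.59% and 24.3% in Ahr-/- BMMs.

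**Figure D1:**
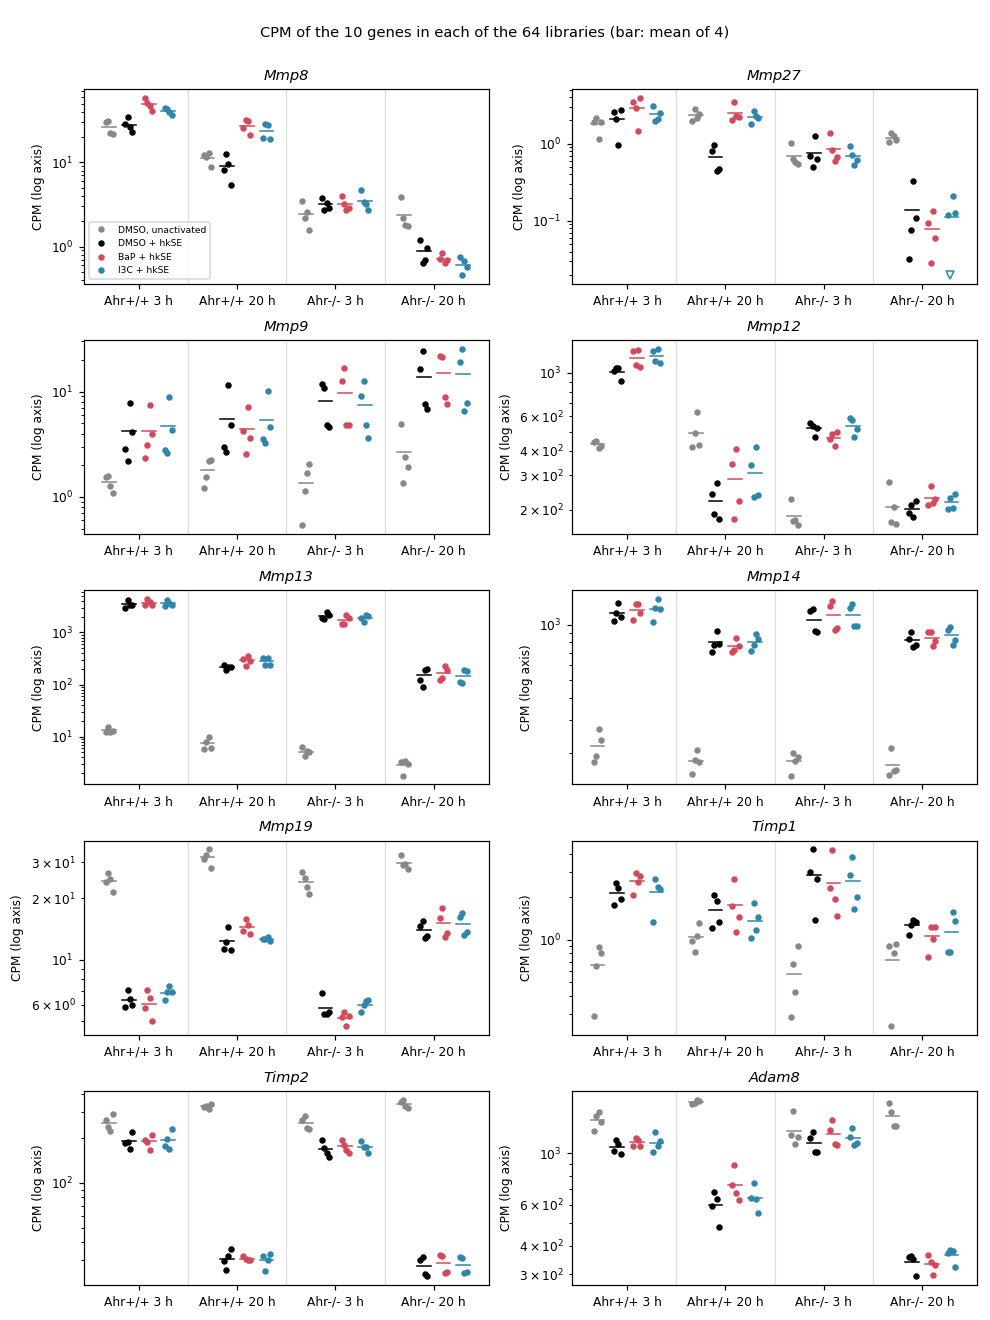
Level of each of the 10 members in every library (CPM, log axis), by genotype, time and treatment; each point is 1 library, bars are means of 4, and the open triangle is the 1 library in which Mmp27 was at 0. Mmp13 stands 2 or more powers of 10 higher at 3 h of hkSE than unactivated, Timp2 is low in every activated group at 20 h, and Mmp8 is lower in all 8 Ahr-/- groups than in all 8 Ahr+/+ groups.

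The first question was how activation with hkSE alone (after DMSO) changed the members. Differences were tested with edgeR's quasi-likelihood test on all 64 libraries with Benjamini-Hochberg adjustment over the 14537 genes, and a gene was called at an adjusted p below 0.01. Every edgeR adjusted p is from the quasi-likelihood test, in this fit of all 64 libraries unless an alternative fit is named beside it. Fold changes are on the log2 scale unless written as a number of times. In Ahr+/+ BMMs, 4 members were called higher and 3 lower at 3 h (56.6% of all genes were called in either direction) and 3 higher and 5 lower at 20 h (58.6%). In Ahr-/- BMMs, 5 were higher and 2 lower at 3 h (57.3%) and 3 higher and 5 lower at 20 h (54.3%). Over the 4 comparisons 30 of 40 tests were called, in an experiment in which activation moved most of the transcriptome, and 32 of the 40 had an unadjusted p below 0.05. The median log2 fold change over the 10 members was 0.72, -0.75, 0.92 and -0.56 in the order above, beside -0.11, -0.001, -0.08 and 0.02 over all genes tested.

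Mmp13, an interstitial collagenase, rose the most. Its levels in the 4 libraries of Ahr+/+ BMMs at 3 h were 12.3, 15.4, 12.4 and 12.9 CPM unactivated and 2929, 4227, 3348 and 3410 CPM after hkSE. Those of Ahr-/- BMMs held 6.21, 4.21, 5.20 and 5.06 CPM and 1904, 1776, 2520 and 2185 CPM. The groups were far apart in both genotypes, with a rise of 262-fold in Ahr+/+ (8.03, SE 0.27, edgeR adjusted p = 1.36e-32) and 404-fold in Ahr-/- BMMs (8.66, SE 0.28, edgeR adjusted p = 2.18e-33). At 20 h, the Ahr+/+ libraries held 5.76, 7.92, 9.94 and 6.18 CPM unactivated and 235, 191, 219 and 219.9 CPM after hkSE. Their Ahr-/- counterparts held 3.34, 1.79, 3.43 and 3.05 CPM and 122, 91.7, 189.5 and 197 CPM. The rise at 20 h, again without overlap, was 29.2-fold (4.87, SE 0.236, edgeR adjusted p = 2.05e-25) in Ahr+/+ and 50.1-fold (5.65, SE 0.251, edgeR adjusted p = 5.23e-27) in Ahr-/- BMMs. Between 3 h and 20 h of hkSE, Mmp13 fell 16.1-fold in Ahr+/+ (-4.01, SE 0.223, edgeR adjusted p = 9.86e-23) and 13.97-fold in Ahr-/- BMMs (-3.80, SE 0.221, edgeR adjusted p = 7.47e-22).

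Mmp12, the macrophage elastase, rose at 3 h and took another course at 20 h. Its levels in Ahr+/+ BMMs at 3 h were 445, 449, 412 and 421 CPM unactivated and 1020, 1053, 1051 and 908 CPM after hkSE, without overlap (1.22, SE 0.167, edgeR adjusted p = 5.39e-09). The Ahr-/- libraries were at 227, 176, 177 and 167 CPM and 555, 537, 467 and 524 CPM (1.48, SE 0.168, edgeR adjusted p = 3.18e-11). At 20 h the Ahr+/+ libraries went from 417, 490, 628 and 426 CPM unactivated to 241, 190.2, 274 and 179.6 CPM, again without overlap but downward (-1.15, SE 0.167, edgeR adjusted p = 2.56e-08). Libraries of Ahr-/- BMMs at 20 h, at 277, 173, 207 and 169.5 CPM and 193, 213, 183 and 222 CPM, overlapped (-0.03, SE 0.165, edgeR adjusted p = 0.896). The difference of the 20 h effect between genotypes was itself called, at 1.12 higher in Ahr-/- BMMs (SE 0.234, edgeR adjusted p = 0.000847), although not in a fit of the compared groups alone (edgeR adjusted p = 0.0117).

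Mmp9, a gelatinase, was low and its libraries spread widely. In Ahr+/+ BMMs at 3 h it was at 1.56, 1.58, 1.282 and 1.09 CPM unactivated and 2.88, 2.21, 7.82 and 4.14 CPM after hkSE. At 20 h it was at 1.22, 1.54, 2.201 and 2.27 CPM unactivated and 3.01, 2.65, 11.5 and 4.81 CPM. The Ahr-/- libraries were at 0.539, 1.13, 1.70 and 2.03 CPM unactivated and 11.96, 10.9, 4.85 and 4.66 CPM at 3 h. At 20 h they were at 4.91, 1.36, 2.42 and 1.92 CPM and then 16.4, 24.6, 7.62 and 6.88 CPM. All activated libraries were above the unactivated ones of the same genotype and time. Replicate 3 was the highest of the 4 in every activated Ahr+/+ group, ligand groups included, and replicates 1 and 2 were the highest in every activated Ahr-/- group. The rise was called in Ahr-/- BMMs at 3 h (2.60, SE 0.582, edgeR adjusted p = 9.8e-05) and 20 h (2.35, SE 0.529, edgeR adjusted p = 0.000111) and in Ahr+/+ BMMs at 20 h (1.58, SE 0.534, edgeR adjusted p = 0.00807). It missed the threshold in Ahr+/+ BMMs at 3 h (1.60, SE 0.611, edgeR adjusted p = 0.0193), but was called with the replicate block (1.41, 0.000669), in a fit of the compared groups alone (0.000867), by DESeq2 (adjusted p = 0.00418) and without activated replicate 2 (edgeR adjusted p = 0.00915). The call in Ahr+/+ BMMs at 20 h was lost without any 1 of the 4 unactivated libraries (edgeR adjusted p = 0.0122 to 0.0266) or without activated replicate 4 (0.0103), with the library identifier in the model (0.0503) and by limma on the deposited variance-stabilized values (adjusted p = 0.0448). Without activated replicate 3 the fold change was 0.94 (edgeR adjusted p = 0.135).

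Mmp14, the membrane-anchored collagenase that also activates other proenzymes on the cell surface, rose in every comparison and with little spread. In Ahr+/+ BMMs its levels went from 179, 192, 269 and 236 CPM unactivated to 1042, 1165, 1309 and 1106 CPM at 3 h of hkSE. At 20 h they went from 154, 182, 207 and 177 to 714, 779.6, 929.5 and 786 CPM. The Ahr-/- libraries went from 150.1, 199, 181 and 189.8 to 1193, 1225, 926 and 917 CPM at 3 h and from 151, 213, 159 and 161 to 835, 916, 759.5 and 773 CPM at 20 h. No activated library overlapped an unactivated one. The rise was 5.28-fold (2.40, SE 0.134, edgeR adjusted p = 8.64e-23) and 4.46-fold (2.16, SE 0.133, edgeR adjusted p = 5.26e-21) in Ahr+/+ BMMs. It was 5.92-fold (2.57, SE 0.135, edgeR adjusted p = 6.34e-24) and 4.80-fold (2.26, SE 0.133, edgeR adjusted p = 9.59e-22) in Ahr-/- BMMs.

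Mmp19, a widely expressed secreted metalloproteinase, fell in every comparison. Ahr+/+ libraries were at 23.9, 26.4, 24.7 and 21.5 CPM unactivated and at 5.83, 7.07, 6.44 and 6.01 CPM after hkSE at 3 h. At 20 h they were at 31.2, 32.6, 34.6 and 28.0 CPM and then 11.3, 12.2, 14.4 and 11.1 CPM. Ahr-/- libraries were at 26.9, 25.1, 22.7 and 20.9 CPM and then 6.85, 5.4, 5.38 and 5.56 CPM at 3 h, and at 32.7, 28.9, 29.3 and 27.8 CPM and then 14.7, 15.4, 12.7 and 12.99 CPM at 20 h. The groups did not overlap. Mmp19 was 3.799-fold (-1.93, SE 0.108, edgeR adjusted p = 9.89e-23) and 2.58-fold lower (-1.36, SE 0.1, edgeR adjusted p = 5.75e-18) in Ahr+/+ BMMs. It was 4.13-fold (-2.05, SE 0.107, edgeR adjusted p = 5.45e-24) and 2.13-fold lower (-1.09, SE 0.099, edgeR adjusted p = 2.34e-14) in Ahr-/- BMMs. It was higher at 20 h than at 3 h of hkSE in both genotypes, by 0.95 and 1.27 on the log2 scale (edgeR adjusted p = 2.87e-11 and 1.51e-15).

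The inhibitors moved in opposite directions. Timp1, the inducible inhibitor, was a low-count gene here (4 to 387 counts per library). In Ahr+/+ BMMs at 3 h it was at 0.292, 0.652, 0.888 and 0.806 CPM unactivated and at 1.76, 2.49, 2.29 and 1.94 CPM after hkSE (1.68, SE 0.358, edgeR adjusted p = 4.79e-05). The Ahr-/- libraries were at 0.285, 0.677, 0.426 and 0.904 CPM unactivated and 2.99, 4.30, 1.37 and 2.68 CPM (2.35, SE 0.35, edgeR adjusted p = 4.83e-08). The means at 20 h were 1.04 ± 0.204 and 1.61 ± 0.408 CPM in Ahr+/+ BMMs (0.59, SE 0.313, edgeR adjusted p = 0.091). They were 0.721 ± 0.3199 and 1.26 ± 0.127 CPM (SD, n = 4) in Ahr-/- BMMs (0.71, SE 0.331, edgeR adjusted p = 0.0562). Thus Timp1 passed the test at 3 h and not at 20 h. Timp1 in Ahr-/- BMMs was 2.24-fold lower at 20 h than at 3 h of hkSE (edgeR adjusted p = 0.0011), a call that was lost without replicate 2 of the 3 h group (edgeR adjusted p = 0.0142) and with the library identifier in the model (0.108).

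Timp2, which blocks metalloproteinases and also takes part in the activation of proMMP2 by the Mmp14 protein, fell in both genotypes at both times. In Ahr+/+ BMMs its levels were 267, 237, 225 and 289.8 CPM unactivated and 187, 188, 170 and 219.6 CPM after hkSE at 3 h. At 20 h they were 327, 329, 316 and 341 CPM unactivated and 29.6, 26.0, 31.9 and 35.8 CPM. The Ahr-/- libraries were at 265, 281, 235 and 229 CPM and then 194, 171, 158 and 149 CPM at 3 h, and 349, 363, 330 and 322 CPM and then 30.2, 31.8, 24.3 and 23.5 CPM at 20 h. At 20 h it was 10.6-fold (-3.41, SE 0.12, edgeR adjusted p = 1.24e-31) and 12.4-fold lower (-3.64, SE 0.121, edgeR adjusted p = 1.47e-32) after hkSE. At 3 h it was lower without overlap in Ahr+/+ BMMs (-0.41, SE 0.109, edgeR adjusted p = 0.000809), where the call was lost without activated replicate 3 (-0.31, edgeR adjusted p = 0.0158) and with the library identifier in the model (0.0104). The libraries of Ahr-/- BMMs did not overlap at 3 h (-0.59, SE 0.109, edgeR adjusted p = 4.88e-06).

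With Mmp14 higher and Timp2 lower after hkSE, their ratio per length of exon moved by more than either. The log2 ratio of Mmp14 to Timp2 in FPKM was -0.84 ± 0.35 at 3 h and -1.49 ± 0.20 at 20 h in unactivated Ahr+/+ BMMs, and 1.98 ± 0.26 and 4.09 ± 0.22 after hkSE (SD, n = 4). For Ahr-/- BMMs it was -1.10 ± 0.24 and -1.62 ± 0.18 unactivated, and 2.04 ± 0.13 and 4.30 ± 0.11 after hkSE. In the ligand groups the means were 2.04 to 2.06 at 3 h and 4.02 to 4.35 at 20 h, near those of hkSE with DMSO. The ratio compares 2 RNAs and says nothing of the amounts of protein.

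**Figure D2:**
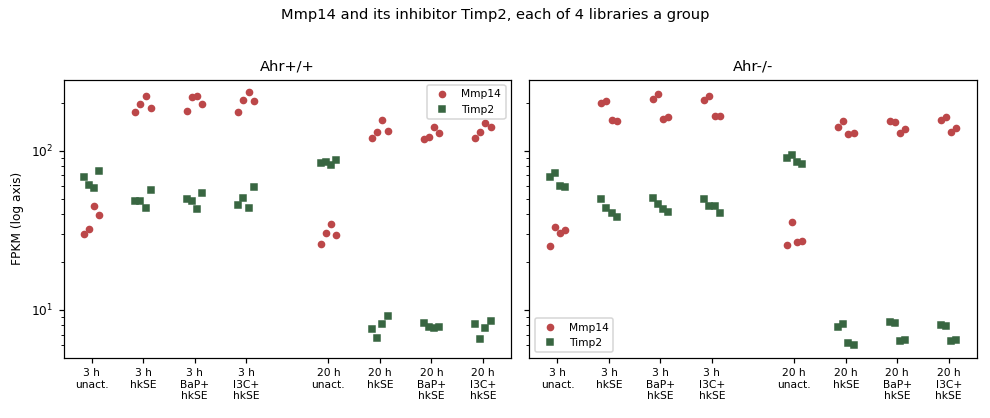
Mmp14 and Timp2 in FPKM (log axis) in every library of both genotypes, by time and treatment; each point is 1 library. Unactivated, Timp2 lies above Mmp14 (65.3 against 36.7 FPKM in Ahr+/+ BMMs at 3 h), and 20 h after hkSE Mmp14 lies above Timp2 (134.6 against 7.91 FPKM).

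Adam8, a membrane-anchored protease with a disintegrin domain that is found on leukocytes, fell with hkSE at 20 h in both genotypes and at 3 h in Ahr+/+ BMMs. Ahr+/+ libraries were at 1250, 1445, 1514 and 1374 CPM unactivated and 1024, 1149, 1095 and 993 CPM after hkSE at 3 h (-0.39, SE 0.105, edgeR adjusted p = 0.00099; lost without activated replicate 1 or 4, edgeR adjusted p = 0.0112 and 0.0151). At 20 h they were at 1632, 1657, 1707 and 1678 CPM unactivated and 595, 678, 634 and 482 CPM, 2.79-fold lower (-1.48, SE 0.107, edgeR adjusted p = 3.16e-18). The Ahr-/- means were 1252 ± 190 and 1107 ± 113 CPM at 3 h (SD, n = 4; -0.18, SE 0.105, edgeR adjusted p = 0.133). At 20 h the Ahr-/- libraries were at 1658, 1510, 1317 and 1310 CPM unactivated and 358, 359.7, 348 and 295 CPM after hkSE, 4.26-fold lower (-2.09, SE 0.109, edgeR adjusted p = 4.83e-24). The fall at 20 h was larger in Ahr-/- BMMs by 0.61 on the log2 scale (SE 0.148, edgeR adjusted p = 0.00419). That call was lost in a fit of the compared groups alone (0.0222), with the library identifier in the model (0.0121), and without any 1 of 4 libraries (0.0105 to 0.0171). These were activated Ahr+/+ replicate 2, unactivated Ahr-/- replicates 1 and 2 and activated Ahr-/- replicate 4.

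Mmp8, the neutrophil collagenase, and Mmp27, a little-studied metalloproteinase related to the stromelysins, did not pass the test at 3 h of hkSE in either genotype. With hkSE, Mmp8 in Ahr+/+ BMMs was at 30.6, 31.4, 22.5 and 21.5 CPM unactivated and 28.6, 34.4, 26.5 and 23.3 CPM activated at 3 h, which overlapped (0.09, SE 0.195, edgeR adjusted p = 0.718). At 20 h it was at 12.3, 11.7, 12.96 and 8.74 CPM unactivated and 8.09, 12.8, 9.65 and 5.41 CPM activated, which overlapped as well (-0.35, SE 0.2, edgeR adjusted p = 0.121; edgeR adjusted p = 0.00491 with the replicate block). In Ahr-/- BMMs Mmp8 was at 0.35 at 3 h (SE 0.242, edgeR adjusted p = 0.202) and fell at 20 h, from 3.86, 2.17, 1.82 and 1.75 to 1.20, 0.637, 0.699 and 0.957 CPM (-1.41, SE 0.262, edgeR adjusted p = 5.05e-06). The fold change of Mmp27 at 3 h was 0.22 in Ahr+/+ (SE 0.315, edgeR adjusted p = 0.567) and 0.15 in Ahr-/- BMMs (SE 0.365, edgeR adjusted p = 0.745). At 20 h it fell from 1.95, 2.83, 2.13 and 2.38 to 0.809, 0.971, 0.440 and 0.469 CPM in Ahr+/+ BMMs (-1.83, SE 0.321, edgeR adjusted p = 1.6e-06). It fell from 1.05, 1.36, 1.24 and 1.12 to 0.0317, 0.0750, 0.331 and 0.110 CPM in Ahr-/- BMMs (-3.14, SE 0.413, edgeR adjusted p = 2.32e-09), where the activated group held 18 counts in all.

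**Figure D3:**
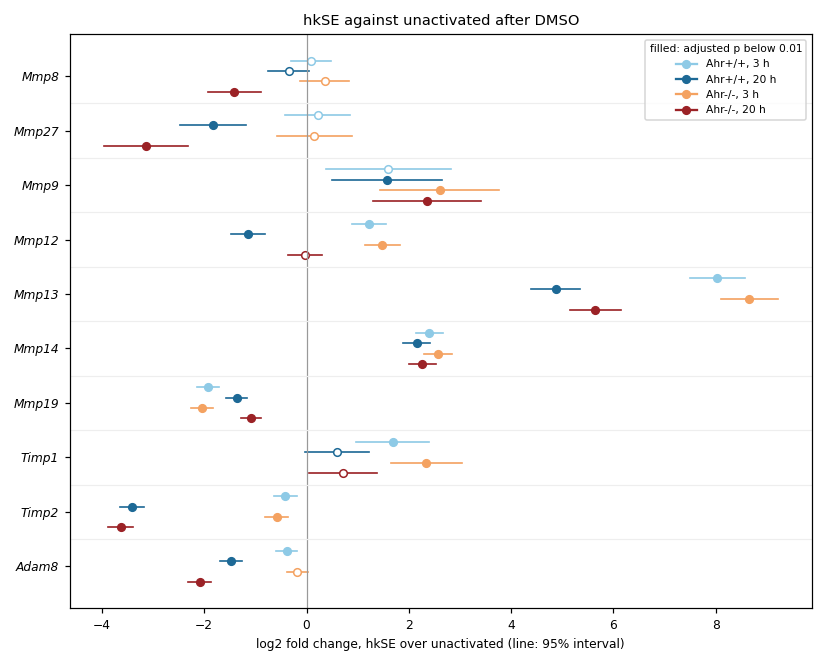
Change of each member with hkSE against unactivated cells after DMSO (log2 fold change with 95% interval), in both genotypes at 3 h and 20 h, with filled points at an adjusted p below 0.01. Mmp13 and Mmp14 lie above 0 and Mmp19 and Timp2 below 0 in all 4 comparisons, and Mmp12 lies above 0 at 3 h and not at 20 h.

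In bulk libraries such as these, fewer cells of a type and less RNA per cell cannot be told apart. Of the 6 neutrophil markers tested, 5 were called higher 3 h after hkSE in each genotype. Of all 14537 genes tested, 3525 were called higher at 3 h in Ahr+/+ and 3702 in Ahr-/- BMMs. The part of the neutrophil markers in the values of Mmp8 and Mmp9, which neutrophils also make, was not tested. The group means of S100a9, S100a8, Ngp and Ltf reached 85.6, 57.6, 40.7 and 16.3 CPM, and those of Ly6g, Elane, Mpo and Prtn3, too low to be tested, at most 0.216 CPM. Summed osteoclast markers were at 15.7 to 32.5 CPM unactivated and 40.8 to 95.6 CPM after hkSE, with group means of up to 68.9 CPM for Acp5. Of the 4 tested, 1 was called higher and 0 lower at 3 h in Ahr+/+ BMMs (56.6% of all genes were called). In Ahr-/- BMMs at 3 h 2 were higher and 0 lower (57.3%). At 20 h 1 was higher and 2 were lower in Ahr+/+ (58.6%), and 1 was higher and 3 were lower in Ahr-/- BMMs (54.3%). The part of the osteoclast markers in the change of Mmp9, which osteoclasts make, was not tested either.

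The time in culture was compared next, with 20 h against 3 h after DMSO. Without hkSE, 3 members were called in Ahr+/+ BMMs (6.07% of all genes were called) and 1 in Ahr-/- BMMs (6.98%). With hkSE, 8 were called in Ahr+/+ BMMs (59.5%) and 9 in Ahr-/- BMMs (56%). All 4 activated Ahr-/- libraries at 20 h carry 1 series of library identifiers and all 4 at 3 h another, so the series and the time cannot be told apart within that comparison. In unactivated Ahr+/+ BMMs, Mmp8 went from 26.5 ± 5.21 to 11.4 ± 1.86 CPM (SD, n = 4), without overlap (-1.23, SE 0.198, edgeR adjusted p = 1.12e-05). In unactivated Ahr-/- BMMs it was at 2.45 ± 0.797 and 2.40 ± 0.992 CPM (-0.07, SE 0.236, edgeR adjusted p = 0.912). The changes of Mmp13 (-0.85, SE 0.214, edgeR adjusted p = 0.00479) and Mmp19 (0.39, SE 0.097, edgeR adjusted p = 0.00471) in unactivated Ahr+/+ BMMs and of Timp2 in unactivated Ahr-/- BMMs (0.43, SE 0.109, edgeR adjusted p = 0.00394) were small. Each was lost without single libraries. All 3 were also lost with the library identifier in the model (edgeR adjusted p = 0.0191 for Mmp13, 0.0174 for Mmp19 and 0.0882 for Timp2). Mmp19 and Timp2 were lost in a fit of the compared groups alone (0.0188 and 0.0366), Mmp19 with no filter on low counts (0.0144) and Mmp13 by limma (adjusted p = 0.01). The edgeR adjusted p was 0.0106 to 0.033 for Mmp13 without 3 h replicate 2 or 20 h replicate 1, 2 or 4. It was 0.0111 to 0.0333 for Mmp19 without 3 h replicate 1, 3 or 4 or 20 h replicate 1, 2 or 3, and 0.0141 to 0.0263 for Timp2 without 3 h replicate 3 or 4 or 20 h replicate 1 or 2. Fitted with a block for the replicate number, 5 more changes were called without hkSE, those of Mmp14 (-0.28, edgeR adjusted p = 0.005), Timp2 (0.37, 1.89e-05) and Adam8 (0.26, 0.00603) in Ahr+/+ and Mmp13 (-0.85, 0.000471; also called by DESeq2, 0.00489) and Mmp19 (0.32, 0.000494) in Ahr-/- BMMs.

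With hkSE, Mmp19 was the only member higher at 20 h than at 3 h, in both genotypes, among 8 and 9 members called. Timp2 was 6.20-fold lower in Ahr+/+ BMMs (-2.63, SE 0.116, edgeR adjusted p = 5.8e-27) and 6.13-fold lower in Ahr-/- BMMs (-2.62, SE 0.116, edgeR adjusted p = 8.55e-27). Mmp12 was 4.56-fold and 2.57-fold lower (edgeR adjusted p = 1.14e-16 and 3.79e-10). Mmp8 was lower by 1.66 and 1.83 on the log2 scale (edgeR adjusted p = 2.72e-10 and 3.36e-08) and Mmp27 by 1.67 and 2.53 (edgeR adjusted p = 2.23e-05 and 2.14e-06). Adam8 was lower by 0.83 and 1.70 (edgeR adjusted p = 6.41e-10 and 2.35e-20). Mmp14 was lower by 0.53 in Ahr+/+ (0.000273) and by 0.38 in Ahr-/- BMMs (0.00834), the second of which was lost without 3 h replicate 1 or 2 or 20 h replicate 1, 3 or 4 (0.0149 to 0.0296), with no filter on low counts (0.0201), in a fit of the compared groups alone (0.0111) and with the library identifier in the model, where the fold change was -0.16 (edgeR adjusted p = 0.466). Over the 4 comparisons of time, 21 of 40 tests were called, 4 higher and 17 lower at 20 h, and 28 had an unadjusted p below 0.05.

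The comparison of Ahr-/- with Ahr+/+ BMMs asked which members differ between the genotypes without added ligand. The Ahr-/- mice were a knockout strain crossed back in-house. Loss of the receptor therefore cannot be told apart from other differences between the strains. All 12 calls of 40 tests were lower in Ahr-/- BMMs, 3 in each of the comparisons unactivated at 3 h (0.97% of all genes were called lower), unactivated at 20 h (0.482%), activated at 3 h (1.61%) and activated at 20 h (7.39%). Of the 40 tests, 18 had an unadjusted p below 0.05. The calls fell on 5 genes, of which 4 (Mmp8, Mmp27, Mmp12 and Mmp13) are those of the chromosome 9 cluster, and the fifth was Adam8. Mmp9, Mmp14, Mmp19, Timp1 and Timp2 were called in none of the 4 comparisons.

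Mmp8 differed the most. Unactivated, it was at 30.6, 31.4, 22.5 and 21.5 CPM in Ahr+/+ and at 3.48, 2.18, 2.56 and 1.58 CPM in Ahr-/- BMMs at 3 h. After hkSE it was at 28.6, 34.4, 26.5 and 23.3 CPM and 3.8, 2.75, 3.31 and 2.88 CPM. At 20 h, the values of the 4 Ahr-/- libraries were 3.86, 2.17, 1.82 and 1.75 CPM unactivated and 1.20, 0.637, 0.699 and 0.957 CPM with hkSE. The Ahr+/+ libraries were at 12.3, 11.7, 12.96 and 8.74 CPM unactivated and 8.09, 12.8, 9.65 and 5.41 CPM. No Ahr-/- library reached the lowest Ahr+/+ library of the same treatment and time. The level in Ahr-/- BMMs was 10.7-fold (-3.42, SE 0.225, edgeR adjusted p = 4.2e-17) and 4.78-fold lower (-2.26, SE 0.22, edgeR adjusted p = 1.7e-10) unactivated at 3 h and 20 h. After hkSE it was 8.89-fold (-3.15, SE 0.228, edgeR adjusted p = 2.18e-15) and 9.99-fold lower (-3.32, SE 0.247, edgeR adjusted p = 3.77e-15). In a fit of the compared groups alone, the difference in unactivated BMMs at 20 h was not called (edgeR adjusted p = 0.0128). In the order of the 16 group means, all 8 Ahr+/+ groups stood above all 8 Ahr-/- groups. The lowest Ahr+/+ group (20 h, hkSE with DMSO, 8.98 ± 3.08 CPM) did not overlap the highest Ahr-/- group (3 h, hkSE with I3C, 3.52 ± 0.859 CPM). Within the Ahr+/+ groups there were gaps below the 3 h ligand groups and below the 20 h ligand groups, and within the Ahr-/- groups 1 gap, below the unactivated group at 20 h; other neighbours in the order overlapped.

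Mmp27 was lower in Ahr-/- BMMs after hkSE, at 0.685, 0.503, 1.24 and 0.639 CPM against 2.53, 2.09, 0.969 and 2.72 CPM at 3 h (-1.42, SE 0.349, edgeR adjusted p = 0.00694), which overlapped. At 20 h the values were 0.0317, 0.0750, 0.331 and 0.110 CPM against 0.809, 0.971, 0.440 and 0.469 CPM, without overlap (-2.29, SE 0.439, edgeR adjusted p = 9.46e-05). Unactivated it was at 0.693 ± 0.217 CPM against 1.77 ± 0.443 CPM (SD, n = 4) at 3 h (-1.35, SE 0.33, edgeR adjusted p = 0.0119). At 20 h unactivated it was at 1.19 ± 0.137 against 2.32 ± 0.380 CPM (-0.97, SE 0.301, edgeR adjusted p = 0.0837), and neither difference was called. The first was called by DESeq2 (adjusted p = 0.000957) and without unactivated Ahr+/+ replicate 3 (edgeR adjusted p = 0.00514) or Ahr-/- replicate 1 (0.00722). The call at 3 h of hkSE was lost without activated Ahr+/+ replicate 1, 2 or 4 or Ahr-/- replicate 1, 2 or 4 (edgeR adjusted p = 0.0218 to 0.0589), with the library identifier in the model (0.0271), in a fit of the compared groups alone (0.0574) and with no filter on low counts (0.0109). The call at 20 h was lost in a fit of the compared groups alone (0.023).

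Mmp12 was lower in Ahr-/- BMMs in 3 of 4 comparisons. It was 2.31-fold (-1.21, SE 0.167, edgeR adjusted p = 3.44e-06) and 2.37-fold lower (-1.25, SE 0.167, edgeR adjusted p = 2.45e-06) unactivated at 3 h and 20 h, and 1.94-fold lower 3 h after hkSE (-0.95, SE 0.166, edgeR adjusted p = 0.000142), each without overlap of the libraries given above. At 20 h of hkSE the libraries of both genotypes overlapped (-0.13, SE 0.165, edgeR adjusted p = 0.654). The difference in unactivated BMMs at 20 h was not called in a fit of the compared groups alone (edgeR adjusted p = 0.0374).

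Mmp13 was lower in unactivated Ahr-/- BMMs, 2.56-fold at 3 h (-1.36, SE 0.222, edgeR adjusted p = 9.65e-05) and 2.47-fold at 20 h (-1.30, SE 0.228, edgeR adjusted p = 0.000326), the second of which was not called with the library identifier in the model (edgeR adjusted p = 0.0106) or in a fit of the compared groups alone (0.0669). After hkSE it was at 2096 ± 330.3 CPM against 3479 ± 543 CPM (SD, n = 4) at 3 h (-0.73, SE 0.198, edgeR adjusted p = 0.0159; called by DESeq2, adjusted p = 0.00871). At 20 h it was at 150 ± 51.3 against 216 ± 18.4 CPM (-0.53, SE 0.198, edgeR adjusted p = 0.0519). The fold rise with hkSE was 0.63 and 0.78 larger on the log2 scale in Ahr-/- BMMs, differences that were not called (edgeR adjusted p = 0.81 and 0.0994).

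Adam8 was called in 1 comparison, after hkSE at 20 h, where the Ahr-/- libraries were at 358, 359.7, 348 and 295 CPM and the Ahr+/+ libraries at 595, 678, 634 and 482 CPM, 1.76-fold lower (-0.81, SE 0.105, edgeR adjusted p = 5.11e-08). In the other 3 comparisons its fold change was -0.20 to 0.06. Mmp9 pointed the other way at 20 h of hkSE (1.32, SE 0.501, edgeR adjusted p = 0.0542) without being called, and without Ahr+/+ replicate 3 its fold change was 1.96 (edgeR adjusted p = 0.00813). The activated groups of the 20 h comparison carry different series of library identifiers in the 2 genotypes, 1 series in the 4 Ahr-/- and another in the 4 Ahr+/+ libraries. Within it the series and the genotype cannot be told apart. With the identifier as a covariate over all 64 libraries the 20 h calls of Mmp8, Mmp27 and Adam8 held. That fit takes the effect of the series from other groups, so it cannot separate series and genotype in this comparison. Unactivated at 20 h, the 4 Ahr-/- libraries carry 1 series, and only 1 of the 4 Ahr+/+ libraries carries it. All 3 calls there, of Mmp8, Mmp12 and Mmp13, were lost in a fit of the compared groups alone (edgeR adjusted p = 0.0128, 0.0374 and 0.0669).

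**Figure D4:**
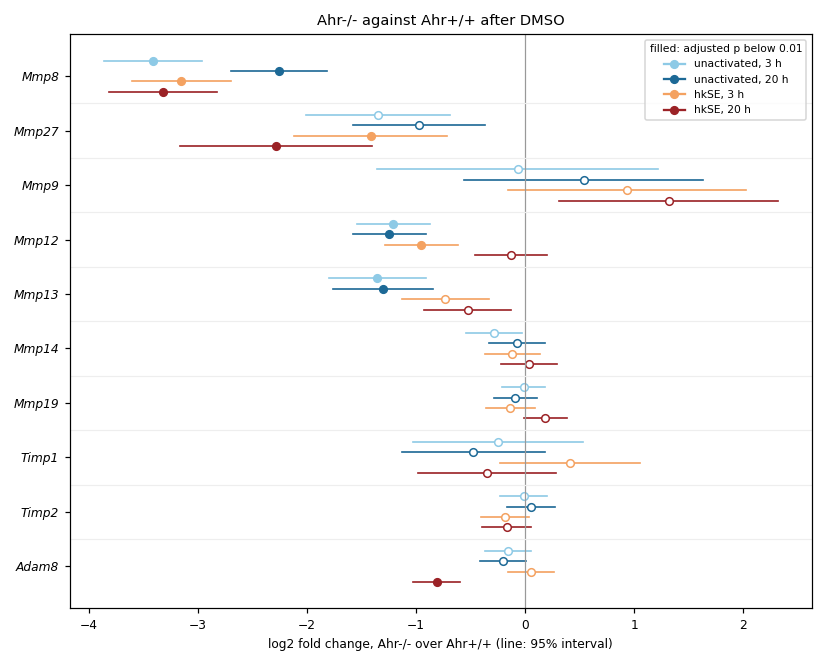
Change of each member in Ahr-/- against Ahr+/+ BMMs after DMSO (log2 fold change with 95% interval), unactivated and activated at 3 h and 20 h, with filled points at an adjusted p below 0.01. Mmp8 lies between -3.42 and -2.26 in all 4 comparisons, and Mmp14, Mmp19, Timp1 and Timp2 have open points throughout.

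The other genes at the locus were examined as well. Mmp10, a stromelysin of the cluster, was at 4.36 ± 0.493 CPM in Ahr-/- and 8.19 ± 1.66 CPM in Ahr+/+ BMMs (SD, n = 4) after 3 h of hkSE, a difference that was not called (edgeR adjusted p = 0.0266). It was called lower at 20 h of hkSE (0.00213), where the Ahr-/- group held 3 counts in all and the Ahr+/+ group 25. Unactivated, Mmp10 was not called (edgeR adjusted p = 0.0124 and 0.124 at 3 h and 20 h). Mmp3, another stromelysin of the cluster, held 0 to 3 counts per unactivated group, and after hkSE its fold change of -0.25 at 3 h and 0.86 at 20 h was not called (edgeR adjusted p = 0.879 and 0.189). Of 6 genes that flank the cluster, 5 were tested, and 1 of them was called, Birc3, an inhibitor of apoptosis, at 0.28 in unactivated BMMs at 3 h (edgeR adjusted p = 0.00373) and -0.22 in activated BMMs at 20 h (0.00554). In these comparisons 1.21% and 12.5% of all genes were called. Of 23 genes of the metalloproteinase family, which include the 7 Mmp members, 13 were tested. In Ahr-/- BMMs 0 were called higher and 3, 3, 3 and 5 lower in the 4 comparisons. The share of all genes called lower was 0.97, 0.482, 1.61 and 7.39%. In the first 3 comparisons every family gene called was a member already described. The medians over the 13 genes were -0.28, -0.09, -0.32 and -0.37 beside medians over all genes of 0.002, -0.01, 0.02 and 0.01. Neutrophil markers were not called in any comparison of genotype (6 tested), and their summed level was 15.8 to 44.1 CPM in Ahr+/+ and 20.9 to 25.4 CPM in Ahr-/- BMMs unactivated at 3 h. After 3 h of hkSE its mean was 188 CPM in Ahr+/+ (lowest library 111 CPM) and 117 CPM in Ahr-/- BMMs (115 to 119 CPM), which overlapped, with a median log2 fold change of -0.63 over the 6 markers tested, and 1 of 7 macrophage markers, Mertk, was called lower in Ahr-/- BMMs. Of all genes, 1.61% were called lower in that comparison. The part of the neutrophil and macrophage markers in the lower Mmp8, Mmp12 and Mmp27 there was not tested. In activated BMMs at 20 h, 2 of 7 macrophage markers, both tested dendritic cell markers and 1 of 4 osteoclast markers were called lower in Ahr-/- BMMs. Of all genes, 7.39% were called lower there. Summed dendritic cell markers were at 0.075 to 0.442 CPM in Ahr-/- against 0.859 to 1.85 CPM in Ahr+/+ BMMs. The part of these markers in the lower Adam8, Mmp8 and Mmp27 of that comparison was not tested.

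The effect of hkSE was also compared between genotypes directly, as the fold change in Ahr-/- minus that in Ahr+/+ BMMs. At 3 h 0 members were called (0.0138% of all genes), and at 20 h 2 (4.41%), which were Mmp12 and Adam8 as given above; 6 of the 20 tests had an unadjusted p below 0.05. For Mmp8 at 20 h the difference was -1.06 (edgeR adjusted p = 0.0298), and it was called with the replicate block (0.001) and without activated Ahr+/+ replicate 4 (0.00751).

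The last question was which members respond to an AhR ligand given before hkSE. The study itself singled out Mmp8 and Mmp27 on these samples, so their response to the ligands is not independent evidence. BaP and I3C were each compared with the same DMSO libraries. In Ahr+/+ BMMs, 0 members were called with BaP at 3 h (0.0482% of all genes were called in either direction) and 0 with I3C at 3 h (0.131%). At 20 h, 2 members were called higher with BaP (0.0963% of all genes were called higher, 14 genes) and 2 with I3C (0.0482%, 7 genes), Mmp8 and Mmp27 in both. Of the 40 tests, 11 had an unadjusted p below 0.05, and 6 were called with the replicate block and 4 by DESeq2 and by limma.

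Mmp8 in Ahr+/+ BMMs 20 h after hkSE was at 8.09, 12.8, 9.65 and 5.41 CPM with DMSO. With BaP it was at 25.6, 31.6, 31.0 and 21.4 CPM, and with I3C at 19.8, 28.8, 27.8 and 18.97 CPM. Every ligand library was above every DMSO library, by 3.06-fold with BaP (1.62, SE 0.201, edgeR adjusted p = 7.01e-07) and 2.67-fold with I3C (1.41, SE 0.201, edgeR adjusted p = 5.16e-06). Between libraries of the same replicate number the ratios were 2.47- to 3.96-fold and 2.25- to 3.51-fold. At 3 h the DMSO libraries were at 28.6, 34.4, 26.5 and 23.3 CPM, the BaP libraries at 58.0, 51.4, 46.7 and 40.6 CPM and the I3C libraries at 44.3, 43.5, 39.4 and 36.7 CPM. Again no ligand library overlapped the DMSO libraries, but the fold changes of 0.80 for BaP (SE 0.196, edgeR adjusted p = 0.203) and 0.54 for I3C (SE 0.196, 0.5) were not called. With the replicate block they were (2.71e-05 and 0.00729). All 4 same-numbered pairs were higher with the ligand, by 1.49- to 2.03-fold with BaP and 1.27- to 1.57-fold with I3C.

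Mmp27 in Ahr+/+ BMMs 20 h after hkSE was at 0.809, 0.971, 0.440 and 0.469 CPM with DMSO, at 2.02, 3.46, 2.3 and 2.21 CPM with BaP and at 1.82, 2.60, 2.26 and 2.16 CPM with I3C. The groups did not overlap, and the rise was 3.79-fold with BaP (1.92, SE 0.324, edgeR adjusted p = 0.000546) and 3.38-fold with I3C (1.76, SE 0.327, edgeR adjusted p = 0.000856). Without DMSO replicate 4 the value for BaP was 1.76 and no longer called (edgeR adjusted p = 0.0113). That for I3C was lost without DMSO replicate 3 (1.60, 0.0117) or 4 (1.59, 0.0149). At 20 h the ligand groups of Mmp27 were near the unactivated group (2.32 ± 0.380 CPM, SD, n = 4), and those of Mmp8, at 27.4 ± 4.81 and 23.8 ± 5.16 CPM, above it (11.4 ± 1.86 CPM). At 3 h the fold changes of Mmp27 were 0.48 with BaP and 0.21 with I3C (edgeR adjusted p = 1 for both), and 4 of 4 and 2 of 4 same-numbered pairs were higher with the ligand.

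The other 8 members were not called with a ligand in Ahr+/+ BMMs. Those nearest to it at 20 h were Adam8 with BaP (730.2, 892, 675 and 626 CPM, 0.29, SE 0.105, edgeR adjusted p = 0.224), Mmp12 with I3C (0.47, SE 0.165, edgeR adjusted p = 0.294) and Mmp13 with BaP (0.44, SE 0.198, edgeR adjusted p = 0.411). Mmp14, Timp1 and Timp2, which hkSE moved, had no unadjusted p below 0.05 with either ligand at 20 h. As with Mmp8, some uncalled groups did not overlap. Mmp12 at 3 h was at 908 to 1053 CPM with DMSO, 1069 to 1302 CPM with BaP and 1115 to 1325 CPM with I3C. Mmp13 at 20 h was at 190.8 to 234.9 CPM with DMSO and 236.7 to 325.9 CPM with I3C. No tested marker of another cell type or of macrophages was called with a ligand in Ahr+/+ BMMs at 20 h. Of all genes, 0.234% were called with BaP and 0.509% with I3C, so 0 calls among these markers say little about the mixture of cells. The summed neutrophil markers were at 22.6 to 40.2 CPM with DMSO, 18.1 to 39.5 CPM with BaP and 20.8 to 44 CPM with I3C.

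In Ahr-/- BMMs, 0 of 40 tests were called with a ligand (of all genes, BaP gave calls for 0.0275% at 3 h and 0.0138% at 20 h, and I3C for 0.0206% and 0.206%). DESeq2 and limma also called 0, and 0 of the 40 had an unadjusted p below 0.05 with edgeR. Mmp8 at 20 h was at 0.719, 0.827, 0.637 and 0.690 CPM with BaP and 0.743, 0.460, 0.671 and 0.565 CPM with I3C, against 1.20, 0.637, 0.699 and 0.957 CPM with DMSO, and the groups overlapped (-0.31 and -0.56). Mmp27 held 12 counts with BaP and 15 with I3C over 4 libraries at 20 h, against 18 with DMSO, so a change of the size seen in Ahr+/+ BMMs was measured with little precision there.

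**Figure D5:**
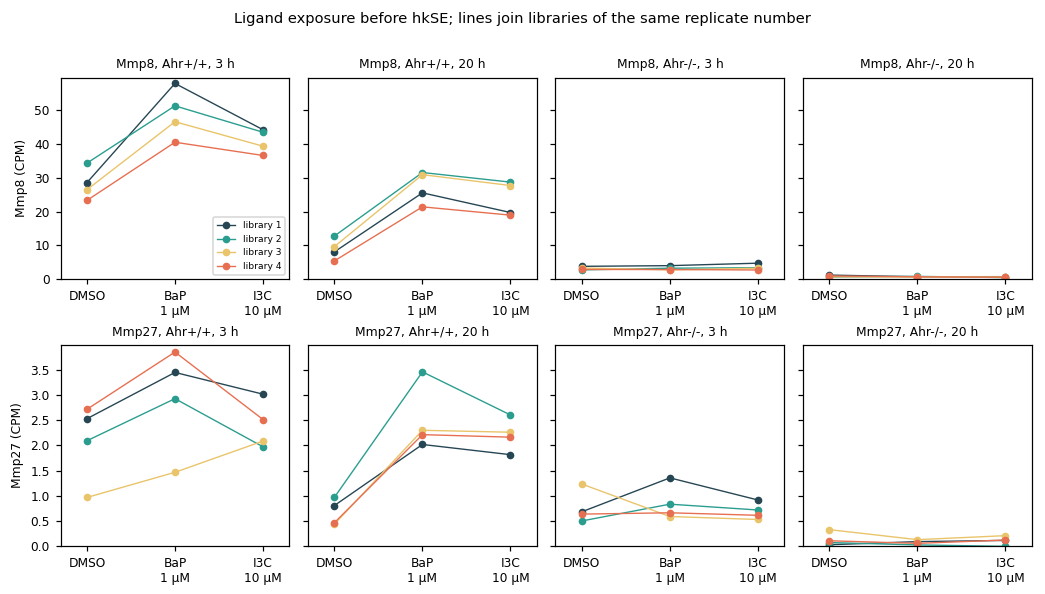
Mmp8 and Mmp27 after hkSE with DMSO, 1 µM BaP or 10 µM I3C (CPM, linear axis from 0), in both genotypes at 3 h and 20 h; each point is 1 library and lines join libraries of the same replicate number. In Ahr+/+ BMMs at 20 h every ligand library lies above every DMSO library for both genes, and in Ahr-/- BMMs the groups overlap.

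Whether the ligand effect differed between genotypes was tested as an interaction, Ahr+/+ minus Ahr-/-. With edgeR 0 of 40 tests were called (of all genes, 0.0138% for BaP at 3 h and 0% in the other 3 interactions), and 6 had an unadjusted p below 0.05, while DESeq2 called 2. The difference for Mmp8 at 20 h was 1.93 for BaP (SE 0.357, edgeR adjusted p = 0.0229) and 1.97 for I3C (SE 0.371, 0.0155), and for Mmp27 2.65 for BaP (SE 0.682, 0.197) and 1.93 for I3C (0.987). Both Mmp8 values were called by DESeq2, by limma on the deposited variance-stabilized values and with the replicate block, and by edgeR without DMSO replicate 2 of the Ahr+/+ group (edgeR adjusted p = 0.00197 for BaP and 0.00277 for I3C). The difference of the ligand effect between 20 h and 3 h in Ahr+/+ BMMs was called for 0 of 20 tests (share of all genes 0% for BaP and 0.0275% for I3C), with 4 at an unadjusted p below 0.05, and DESeq2 and limma called 0 too. It was 0.82 and 0.88 for Mmp8 (edgeR adjusted p = 0.706 and 1; for I3C 0.00688 with the block) and 1.44 and 1.55 for Mmp27 (0.602 and 0.985).

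BaP and I3C were set side by side in Ahr+/+ BMMs, at doses that differed. By edgeR 0 of 20 tests were called (0.11% of all genes at 3 h and 0.282% at 20 h), and 0 had an unadjusted p below 0.05, nor did DESeq2 or limma make a call. For Mmp8 the value with BaP was higher than with I3C by 0.26 at 3 h (95% interval -0.13 to 0.65) and 0.20 at 20 h (-0.19 to 0.59), and for Mmp27 by 0.28 (-0.35 to 0.91) and 0.17 (-0.42 to 0.76). The intervals leave room for a difference of up to 0.59 to 0.91 in favour of BaP, so the 2 exposures are not shown to act alike.

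Genes of lists drawn up for the family and its partners, the 10 members among them, were tested with hkSE as well. Of the 13 tested genes of the metalloproteinase family, 7 of them members, 8 rose and 1 fell in Ahr+/+ BMMs at 3 h, 7 rose and 5 fell at 20 h. In Ahr-/- BMMs 9 rose and 2 fell at 3 h, and 7 rose and 5 fell at 20 h. The medians were 1.60, 1.58, 1.73 and 1.66 in this order, beside -0.11, -0.001, -0.08 and 0.02 over all genes, of which 56.6, 58.6, 57.3 and 54.3% were called. Members of the family outside the 10 included Mmp25, a membrane-type enzyme of leukocytes, at 5.89 in Ahr+/+ BMMs at 3 h (SE 0.337, edgeR adjusted p = 2.46e-22), the epithelial enzyme Mmp28 at 1.96 (SE 0.21, edgeR adjusted p = 4.8e-12), and Mmp11, a stromelysin, at -2.14 at 20 h (SE 0.413, edgeR adjusted p = 9.45e-06). Of 5 inhibitors, 4 were tested: 1 rose (Timp1) and 2 fell in Ahr+/+ BMMs at 3 h, and 0 rose and 2 fell at 20 h. Timp3 had group means of 0.00918 to 0.371 CPM and Reck, a membrane-anchored inhibitor, was at 0.163 to 1.02 CPM.

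Of 10 genes of plasminogen activation and of proenzyme activators, 7 were tested, and in Ahr+/+ BMMs 5 rose and 1 fell at 3 h and 3 rose and 2 fell at 20 h, where 56.6% and 58.6% of all genes were called. On the log2 scale the 7 tested had a median of 2.87 at 3 h and 0.233 at 20 h. The 1 that fell at 3 h, against most of this list, was Plau, the urokinase that activates plasminogen (-2.87, SE 0.149, edgeR adjusted p = 3.38e-24). Plau was also among the 2 that fell at 20 h (-5.46, SE 0.17, edgeR adjusted p = 5.6e-34). Of 17 ADAM proteases 11 were tested, with 3 higher and 4 lower at 3 h and 3 higher and 3 lower at 20 h in Ahr+/+ BMMs, counts near the same shares of all genes. Adam17, the sheddase that releases tumour necrosis factor, rose 2.83-fold at 3 h (edgeR adjusted p = 9.44e-23). With BaP or I3C, none of the tested inhibitors, ADAM proteases or genes of plasminogen activation was called in Ahr+/+ BMMs at either time. Few genes of any kind were called there: 0.0482% and 0.234% of all genes with BaP at 3 h and 20 h, and 0.131% and 0.509% with I3C. With such shares, 0 calls in short lists say little about these families.

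The genes whose mean log2 CPM over the 16 groups was most like that of each member are given as a description, over points that share libraries and the dominant effect of hkSE. For Mmp8 they were G530011O06Rik (r = 0.936), Pmp22 (0.93) and Gpnmb (0.929), and for Mmp27 A230028O05Rik (0.939), Gpnmb (0.938) and Stap1 (0.937). The closest genes were Csf2 (0.978) for Mmp9, Pdk3 (0.964) for Mmp12, Fam20b (0.995) for Mmp13, Socs3 (0.997) for Mmp14 and Gtf2i (0.995) for Mmp19. For Timp1 the closest was Rab5c (0.967), for Timp2 Abhd12 (0.999) and for Adam8 Tspan13 (0.99). Mmp8 and Mmp27 themselves had r = 0.913 over the 16 groups.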

How the data were processed

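RNA of cultured BMMs was sequenced by the authors with a stranded mRNA protocol on 1 flow cell (reads of 126 bases), demultiplexed with bcl2fastq 2.19.0.316, aligned to mm10 with HISAT2 2.1.0 and counted over exons with HTSeq 0.9.1, per the submitters' processing notes and the methods. The counts per gene were deposited by the authors as whole numbers per library without normalization. A second deposited table holds variance-stabilized values on a log2 scale that the authors made with DESeq2, used here only in 1 alternative.

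From the counts, edgeR 4.0.16 (R 4.3.3) was run on all 64 libraries with 1 mean per group and without the replicate number: filterByExpr with a minimum count of 10 kept 14537 of 55487 genes, library sizes were scaled by TMM, and the quasi-likelihood test was used in 30 comparisons with Benjamini-Hochberg adjustment over all genes in each (threshold 0.01, 48 residual degrees of freedom). Rows that name no gene were left out: they held 3.41 to 5.92% (no feature), 1.06 to 1.61% (ambiguous), 0.831 to 5.63% (low quality), 0.350 to 0.853% (not aligned) and 12.4 to 15.8% (not unique) of the deposited counts per library. CPM used the scaled library sizes, and FPKM the summed exon bases. Counting error is smallest for the abundant members and largest for Mmp27 and Timp1. Alternatives were DESeq2 1.42.0, limma 3.58.1 on the variance-stabilized values, other scaling and filters, the library identifier as a covariate, the compared groups alone, a threshold of 0.05, the replicate block and each library left out.

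Replicate numbers were taken as the 4 mice of each genotype, following the methods; the labels do not say so. Deviations of same-numbered libraries from their group means had a correlation above 0.1 in 10 of 16 ligand and DMSO pairs in Ahr+/+ (0.067 to 0.255) and in 16 of 16 in Ahr-/- BMMs (0.252 to 0.643), and in 4 of 8 and 7 of 8 pairs of activated and unactivated libraries. Named genes were the 10 members, 4 checks of genotype and ligand (Ahr, Ahrr, Nqo1, Tiparp), genes of the lists described in the text, and the 3 genes most like each member. The members and lists were chosen with earlier results of these data known.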

Additional observations from a re-analysis of the deposited data

Results flagged for a closer look

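In 3 of 160 groups of 4 libraries, 1 library of a member stood apart from the other 3 by Dixon's criterion, where 8 would be flagged at a rate of 1 in 20. Mmp12 was at 226.8 CPM in replicate 1 of unactivated Ahr-/- BMMs at 3 h and at 166.7 to 176.8 CPM in the others. Mmp14 was at 212.5 CPM in replicate 2 of unactivated Ahr-/- BMMs at 20 h and at 151.2 to 161.4 CPM in the others. Mmp19 was at 6.85 CPM in replicate 1 of Ahr-/- BMMs 3 h after hkSE with DMSO and at 5.38 to 5.56 CPM in the others. The effect of hkSE at 20 h differed between genotypes for 2 members, by 1.12 on the log2 scale for Mmp12 and by -0.61 for Adam8 (Ahr-/- minus Ahr+/+).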

How the results depend on the processing

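Of 85 member values followed through the alternatives, 69 were called, 52 of these stayed called in every alternative run, 17 were lost in at least 1 and 16 were called only in an alternative; 0 were reversed. Calls of Ahr-/- against Ahr+/+ went from 12 to 7 with the compared groups alone, where fewer samples estimate the spread. Calls of activation by genotype went from 2 to 1 with the library identifier as a covariate and to 0 with the compared groups alone. Calls of ligand by genotype went from 0 to 2 with a threshold of 0.05, DESeq2 or limma; the cause was not tested.

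Without each library in turn, the calls ranged from 29 to 31 for hkSE, 2 to 4 for ligands in Ahr+/+, 0 to 0 for ligands in Ahr-/- and for BaP against I3C, 11 to 13 for genotype, 19 to 21 for time, 1 to 3 for activation by genotype, 0 to 2 for ligand by genotype and 0 to 0 for ligand by time. The count of ligand calls in Ahr+/+ was 2 without replicate 4 of hkSE with DMSO at 20 h, and ligand by genotype reached 2 without replicate 2 of that group or without unactivated Ahr-/- replicate 1 at 20 h.

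Blocking on the replicate number gave 32 calls for hkSE (30 without), 6 for ligands in Ahr+/+ (4), 0 for ligands in Ahr-/- (0), 0 for BaP against I3C (0), 26 for time (21), 3 for activation by genotype (2), 2 for ligand by genotype (0) and 1 for ligand by time (0); no such fit could be made between genotypes. The depth limits Mmp27 most, with 0 to 707 counts per library.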
